A study of Mus musculus and Homo sapiens with 20 samples.

Results

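HCFC1, a chromatin scaffold protein, and 9 of its partners were followed as mRNA in RNA-seq count tables of 3 cell lines treated with an inhibitor of the chaperone HSP90. The genes were HCFC1, HCFC2, OGT, BAP1, KMT2A, WDR5, ASH2L, RBBP5, THAP11 and MEN1, and their rows were those whose gene symbol equals a member, ignoring case. All 10 genes were found in each table. For K562, 12 of 63568 rows matched, since HCFC1 and KMT2A each had a further row with no counts, and for each mouse line 10 of 43626 rows matched. All 10 genes passed the filter on low counts, which left 13456 genes for K562, 12340 for MEF and 11703 for HPC-7.

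The human line K562 was established from a chronic myeloid leukaemia and expresses the fusion kinase BCR-ABL1. The other cells were of mouse: embryonic fibroblasts (MEF) and HPC-7, an established line of blood precursors. The treated group, HSP90i, received NVP-AUY922, which blocks the ATP-binding site of HSP90, for 16 h. Its dose was 300 nM for K562 cells, 200 nM for MEF and 50 nM for HPC-7. The Control group of each line was given DMSO, the solvent, according to the column names of the tables. Each group had 3 libraries, and no genotype or other agent was named. Nothing in the labels marks replicates as separate cultures, so a p-value covers just the spread among these libraries, and that spread may be technical. Since line, dose and count table change together, none of them can be told apart from the others in a comparison across lines. The subject of the series is nuclear HSP90, and the comparisons ask whether the mRNA of the HCFC1 module depends on HSP90 activity. Proteins were not measured in these tables.

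HCFC1 is a scaffold that DNA-binding factors bring to promoters, where it joins enzymes that write or erase histone marks. OGT attaches the sugar O-GlcNAc to HCFC1 and also cuts the HCFC1 precursor into its mature chains. BAP1, a deubiquitinase of histone H2A, binds HCFC1, and so do the methyltransferases of histone H3 lysine 4 (H3K4), in which a catalytic subunit such as KMT2A sits on a shared core of WDR5, RBBP5 and ASH2L. THAP11 is a DNA-binding protein that recruits HCFC1, and MEN1 encodes menin, which ties KMT2A to its target genes. HCFC1 is known for its part in passage through the cell cycle.

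The libraries held 7936066 to 10950573 counts each in K562, 10542305 to 22872539 in MEF, and 10131491 to 16859394 in HPC-7. The chaperone gene HSPA8, a check of the treatment, rose in every line, by 3.91 ± 0.13 (log2 ± standard error, SE), 2.52 ± 0.07 and 1.60 ± 0.08 in K562, MEF and HPC-7. HSP90AA1 rose in K562 (3.20 ± 0.13) and MEF (1.21 ± 0.22) and fell in HPC-7 (-0.62 ± 0.15, adjusted p = 0.00345, edgeR's quasi-likelihood test). Each line held its own markers: 8 of 8 K562 genes in K562, 9 of 10 fibroblast genes in MEF and 10 of 10 blood progenitor genes in HPC-7 reached 1 CPM in Control. Their summed level went from between 1892 and 2185 CPM in Control to between 1640.0 and 1801 in HSP90i in K562, from between 14184 and 14467 to between 20113 and 20953 in MEF, and in HPC-7 from between 3323 and 3401 to between 5604 and 6018. CD34 was at 0 in K562, and of the fibroblast list only Pdgfrb reached 1 CPM in HPC-7. Of the K562 list, 4 of the 5 genes matched in HPC-7 reached a mean of 1 CPM in Control, at 775 to 784 CPM in sum. In MEF Control 1 of 5 did. Genes of the blood progenitor list also reached a mean of 1 CPM in other Control groups, 9 of 10 in K562 and 5 of 10 in MEF. Those in MEF included Cd34 at 179 CPM. Kit and Myb there ran from 0 to 7.30 and from 0 to 3.32 CPM over the Control libraries, both highest in Control replicate 3. Their means of 2.46 and 1.12 CPM thus rested largely on that library. Within a list the genes did not all move alike. In HPC-7 the mean of Cd34 fell from 342 to 56.8 CPM while Kit rose from 988 to 2513. In MEF Fbn1 fell from 613 to 308 CPM while Col3a1 rose from 1572 to 3581. In K562 GATA1 fell from 204 to 103 CPM while TAL1 went from 83.8 to 88.3. The part of these shifts in the results was not tested. In bulk RNA, fewer cells of a type and less RNA per cell cannot be told apart.

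One library stood apart. In K562 Control replicate 1, 8.21% of tested genes lay more than 2-fold from the mean of the other 2 controls, against 3.54% for Control replicate 3 and 0.513% to 1.02% for the other K562 libraries. In the mouse lines the share ran from 0.267% to 2.84%. The highest was that of MEF Control replicate 3, against 0.729% and 0.746% for the other MEF controls. The K562 results are therefore given with and without K562 Control replicate 1.

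Levels are given as CPM, the count relative to the library total, adjusted by TMM factors within each table. A log2 fold change compares HSP90i with Control and carries its SE, and a gene was called higher or lower at a Benjamini-Hochberg adjusted p under 0.05 over all genes tested by edgeR's quasi-likelihood test. Overlapping genes may share reads, since the sources used here do not state whether reads were counted by strand. Levels of different genes are not compared, because the tables hold no transcript lengths.

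OGT and WDR5 had the clearest changes shared by both mouse lines: OGT mRNA rose and WDR5 mRNA fell. In HPC-7 KMT2A also rose, about as a doubling, while ASH2L, MEN1 and HCFC1 fell. In MEF, HCFC1 and BAP1 rose and THAP11 and MEN1 fell. HCFC2 and RBBP5 passed the test in no line. In K562 none of the 10 genes passed.

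Of the 10 genes, 3 were called higher and 3 lower in MEF, where 35.1% of all tested genes were called higher and 38.2% lower. In HPC-7, 2 were called higher and 4 lower, beside 36.5% and 36.6% of all genes. Since 73.4% of all genes were called in MEF and 73.1% in HPC-7, the share of members called, 6 of 10 in each, was no higher than that of all genes. In K562 the test called 0 of 10, beside 5.11% of genes called higher and 5.97% lower (11.1% in all). At an unadjusted p under 0.05 the same test gave 2 of the 10 in K562, BAP1 and WDR5, and DESeq2 called 1, WDR5. Of all 13456 K562 genes, 3631 had an unadjusted p under 0.05, and DESeq2 called 943 higher and 968 lower. Neither share of members was above that of all genes. Over the 10 genes the median log2 fold changes for K562, MEF and HPC-7 were 0.11, 0.04 and -0.12, beside -0.02, -0.01 and -0.0024 over all genes tested.

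**Figure D1:**
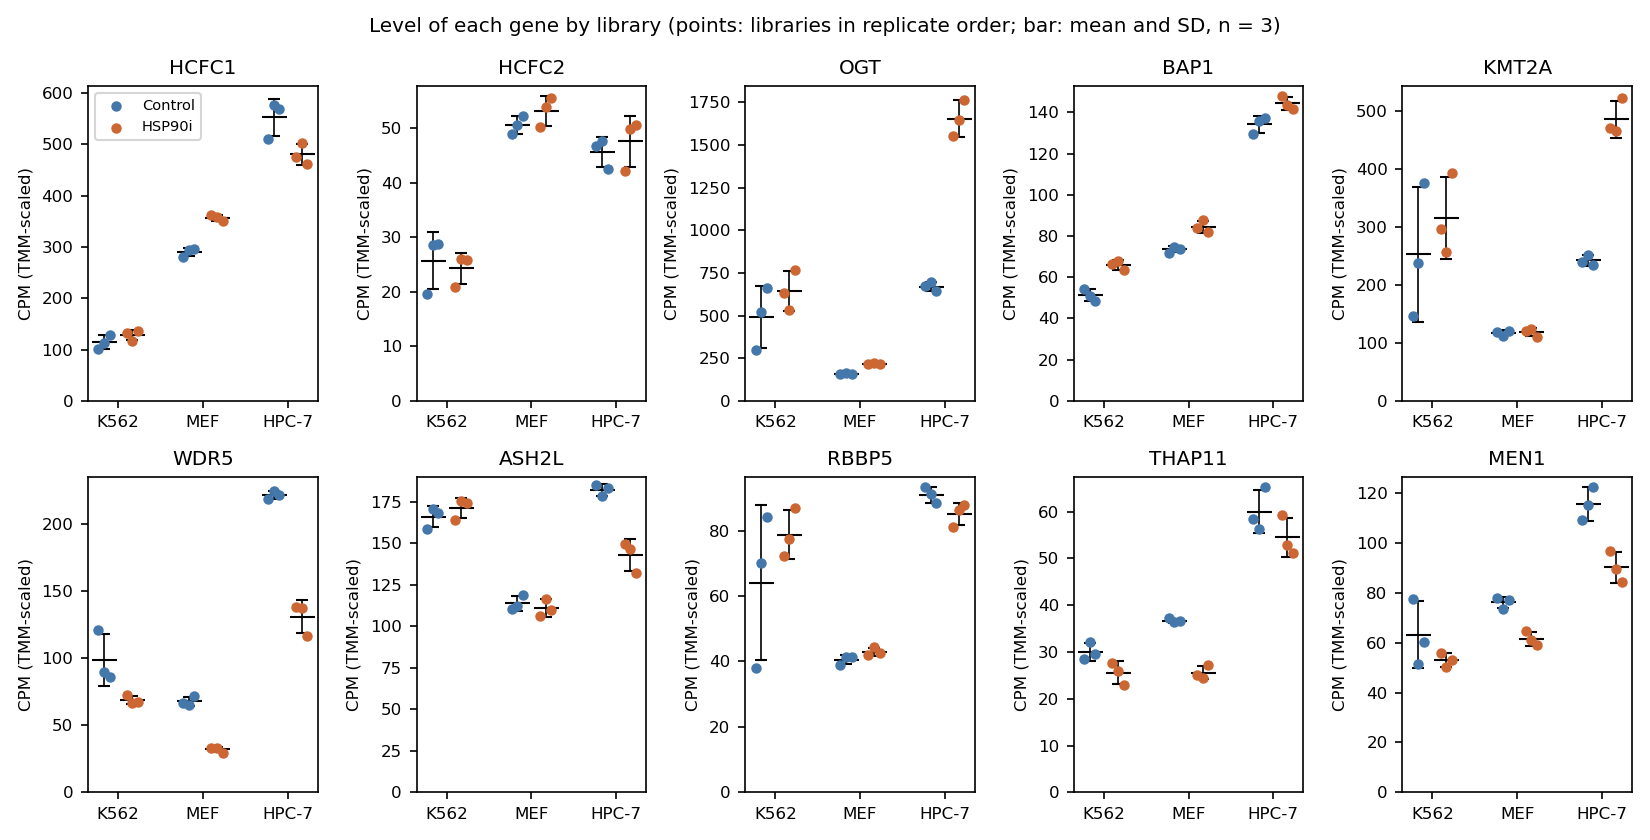
TMM-scaled CPM of each of the 10 genes (vertical axis, linear, from 0) in K562, MEF and HPC-7. Points are the 3 libraries of a group in replicate order, blue for Control and orange for HSP90i, and the bars give the mean and SD (n = 3). OGT in HPC-7 lies between 1553 and 1765 CPM in HSP90i and between 642 and 699 in Control, WDR5 is lower in HSP90i in every line, and the K562 controls of OGT, KMT2A and RBBP5 are spread widely.

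HCFC1, the scaffold itself, moved little and in opposite directions in the mouse lines. In MEF its level was 281, 295 and 296 CPM in Control replicates 1, 2 and 3 and 362, 358 and 351 in HSP90i. All treated libraries lay above all controls, and HCFC1 rose by 0.30 ± 0.04 (log2, adjusted p = 0.000180). In HPC-7 the levels were 510.2, 578 and 570.0 CPM in Control and 476, 503 and 463 in HSP90i. Here every treated library lay below every control, by a small margin. The fall was -0.20 ± 0.07 (adjusted p = 0.0322), and it lost the call without Control replicate 2 (adjusted p = 0.128), Control replicate 3 (0.0969) or HSP90i replicate 3 (0.0944), and with upper quartile factors (0.0971). Over its 13 alternatives the adjusted p ran from 0.0119 to 0.128 and the direction held in all 13. In K562 HCFC1 stood at 101, 113 and 128 CPM in Control and 133, 116 and 136 in HSP90i, so the groups overlapped. The difference of 0.17 ± 0.14 did not pass (adjusted p = 0.477), and was 0.09 without Control replicate 1.

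HCFC2, the shorter paralog of HCFC1, passed the test in no line. Its log2 differences in K562, MEF and HPC-7 were -0.08 ± 0.18, 0.07 ± 0.06 and 0.06 ± 0.09 (adjusted p = 0.821, 0.301 and 0.610), and the groups overlapped in each line. Mean levels were 50.6 ± 1.61 CPM (SD, n = 3) in MEF Control and 45.7 ± 2.72 in HPC-7 Control. Mouse Hcfc2 (GRCm38.p6 chr10:82699007-82795865) overlaps the gene Nfyb, so its counts may include reads of that gene.

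OGT, the only enzyme that adds O-GlcNAc to nuclear and cytosolic proteins, showed the greatest rise among the 10 genes. In HPC-7 it was measured at 671, 699 and 642 CPM in Control and 1553, 1647 and 1765 in HSP90i. The lowest treated library was more than double the highest control. The rise was 1.30 ± 0.08 on the log2 scale, 2.47-fold (adjusted p = 6.36e-07). In MEF, where the level was lower, OGT went from 156, 164 and 158 CPM to 214, 225 and 216. Again the groups stood apart, with a smaller rise of 0.46 ± 0.04 (adjusted p = 1.99e-05). The K562 controls were far apart, at 301, 518 and 659 CPM, and the treated libraries read 631, 532 and 769.7. Control replicate 1 was the low one, at -0.96 (log2) from the mean of the other 2 controls. The K562 difference was 0.39 ± 0.27 (adjusted p = 0.399), 0.13 without Control replicate 1 and 0.66 without Control replicate 3, with no call in either case. OGT transcripts are known to occur also in a form that keeps an intron, and counts per gene cannot tell that form from the spliced mRNA.

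BAP1, which removes ubiquitin from histone H2A, rose in MEF and had differences of the same sign in the other lines. In MEF its level went from 71.9, 74.7 and 73.8 CPM in Control to 83.7, 87.6 and 81.9 in HSP90i. The groups did not overlap, and the rise was 0.20 ± 0.05 (adjusted p = 0.00569). In K562 the controls read 54.5, 51.0 and 48.4 CPM and the treated libraries 66.6, 67.9 and 63.5. These groups did not overlap either, but the difference of 0.36 ± 0.12 missed the threshold (adjusted p = 0.0928). Without Control replicate 1 it was 0.41 ± 0.09 and passed (adjusted p = 0.0044), and that library's own BAP1 value differed from the other controls by only 0.13. In HPC-7 the difference was 0.11 ± 0.06 (adjusted p = 0.163), with levels of 134 ± 4.01 CPM in Control and 144 ± 3.12 in HSP90i (SD, n = 3).

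KMT2A, the MLL1 methyltransferase, rose in HPC-7. Its level there was 239, 253 and 235 CPM in Control and 471, 465 and 523 in HSP90i. The groups stood far apart, and the rise of 1.0 ± 0.07 was 2.01-fold (adjusted p = 1.84e-06). In MEF the values were 118, 113 and 121 CPM and 120.5, 124 and 111, which overlap. The MEF difference was 0.02 ± 0.06 (adjusted p = 0.822). The K562 controls, at 146, 237 and 377 CPM, differed among themselves by more than the groups did, with 296, 257 and 394 in HSP90i. The K562 difference of 0.32 ± 0.31 (adjusted p = 0.566) was 0.04 without Control replicate 1 and 0.72 without Control replicate 3 (adjusted p = 0.0787). Mouse Kmt2a (GRCm38.p6 chr9:44803355-44881352) overlaps the predicted gene Gm39326.

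MEN1, whose product menin holds KMT2A at its targets, fell in both mouse lines. In MEF it went from 77.9, 73.6 and 76.9 CPM to 64.5, 60.9 and 58.9, a fall of -0.31 ± 0.05 (adjusted p = 0.000915). In HPC-7 it went from 109, 115 and 122 CPM to 96.7, 89.6 and 84.3, a fall of -0.36 ± 0.08 (adjusted p = 0.00234). The groups did not overlap in either line. Thus in HPC-7 the mRNAs of KMT2A and menin moved in opposite directions. In K562, MEN1 was at 77.6, 51.3 and 60.4 CPM in Control and 55.8, 50.2 and 53.0 in HSP90i, and the difference of -0.25 ± 0.17 (adjusted p = 0.386) shrank to -0.07 without Control replicate 1.

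WDR5, the core subunit that also sits in the NSL acetyltransferase complex, was lower in HSP90i in every line and showed the greatest fall of the 10 genes. In MEF it went from 66.9, 65.2 and 71.7 CPM to 33.2, 33.4 and 29.6, below a halving of the control mean. The fall was -1.08 ± 0.07 (adjusted p = 1.23e-06). In HPC-7 it went from 219, 225 and 222 CPM to 139, 137 and 117, a fall of -0.76 ± 0.08 (adjusted p = 1.47e-05). The K562 levels were 121, 89.5 and 85.9 CPM in Control and 72.3, 66.6 and 67.2 in HSP90i. No treated library overlapped a control in any of the 3 lines. In K562 the difference of -0.53 ± 0.16 missed the threshold (adjusted p = 0.0708). It passed without Control replicate 1 (-0.35, adjusted p = 0.0088), whose WDR5 value was 0.47 above the other controls, and without Control replicate 3 (-0.62, adjusted p = 0.0442). It was called in 5 of 13 alternatives, with the adjusted p between 0.0088 and 0.240.

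ASH2L and RBBP5, the other shared subunits, did not pass the test in MEF. ASH2L fell in HPC-7, from 185, 178 and 183 CPM to 149.9, 147 and 132. The groups stood apart by a wide margin (-0.35 ± 0.07, adjusted p = 0.00131). In MEF and K562 the ASH2L differences were -0.04 ± 0.05 and 0.05 ± 0.11 (adjusted p = 0.555 and 0.833), and the groups overlapped. RBBP5 passed in no line, with differences of 0.09 ± 0.06 in MEF, -0.10 ± 0.07 in HPC-7 and 0.30 ± 0.26 in K562 (adjusted p = 0.189, 0.229 and 0.512). Its K562 controls read 38.0, 70.1 and 84.2 CPM, the first of them at -1.01 (log2) from the mean of the others, and the treated libraries 72.1, 77.3 and 86.8. Without Control replicate 1 the RBBP5 difference in K562 was 0.03.

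THAP11, the DNA-binding member, fell in MEF, from 37.2, 36.4 and 36.5 CPM to 25, 24.5 and 27.1. The groups did not overlap, and the fall was -0.52 ± 0.06 (adjusted p = 8.24e-05). In K562 and HPC-7 the differences had the same sign but did not pass: -0.23 ± 0.13 and -0.14 ± 0.09 (adjusted p = 0.321 and 0.193). The K562 values, 28.4, 32.1 and 29.5 CPM in Control and 27.8, 26 and 23.0 in HSP90i, did not overlap, whereas those of HPC-7 did.

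**Figure D2:**
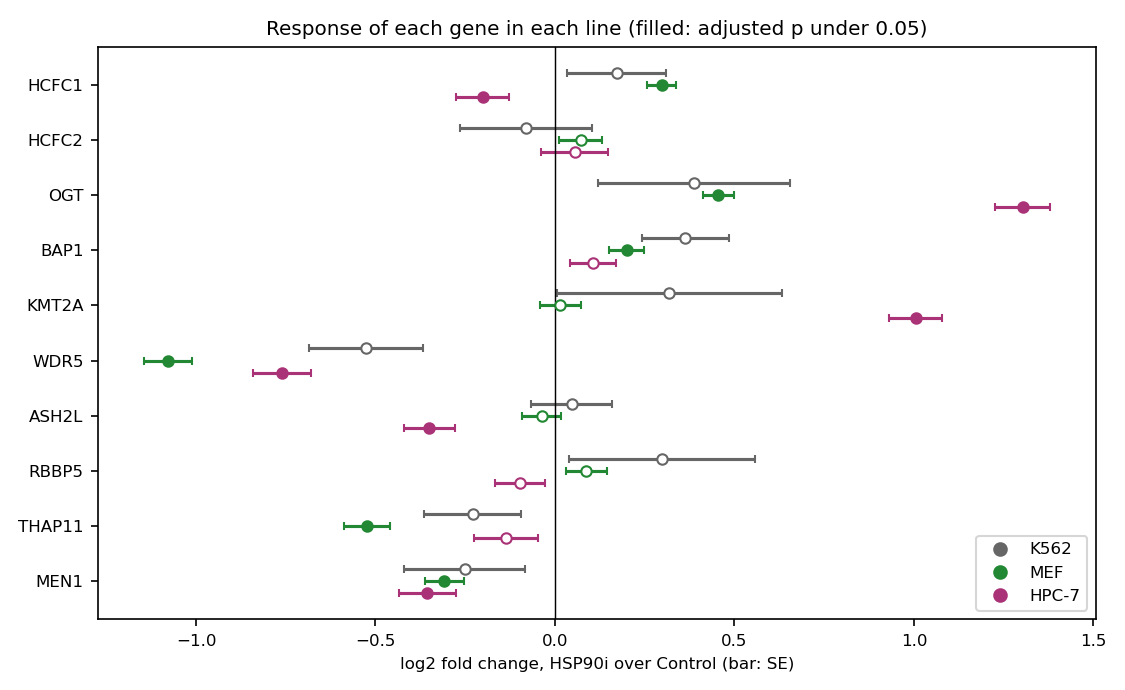
Log2 fold change of HSP90i over Control (horizontal axis) with its SE for each gene in K562 (grey), MEF (green) and HPC-7 (purple); filled points passed an adjusted p of 0.05. OGT and KMT2A in HPC-7 lie at 1.30 and 1.0, WDR5 lies left of zero in all 3 lines, and no K562 point is filled.

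The K562 values of several members moved with the control library that stood apart. Relative to the mean of the other 2 controls, Control replicate 1 was low for KMT2A (-1.04), RBBP5 (-1.01), OGT (-0.96), HCFC2 (-0.54) and HCFC1 (-0.26) and high for MEN1 (0.48) and WDR5 (0.47), on the log2 scale. BAP1 (0.13), ASH2L (-0.10) and THAP11 (-0.11) were close to the other controls in that library. Without Control replicate 1 the K562 differences of HCFC2, ASH2L and THAP11 were -0.24, 0.02 and -0.27 and did not pass. Without it the test called 1922 genes higher and 1995 lower, in place of 688 and 803, and 2 members, BAP1 higher and WDR5 lower.

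**Figure D3:**
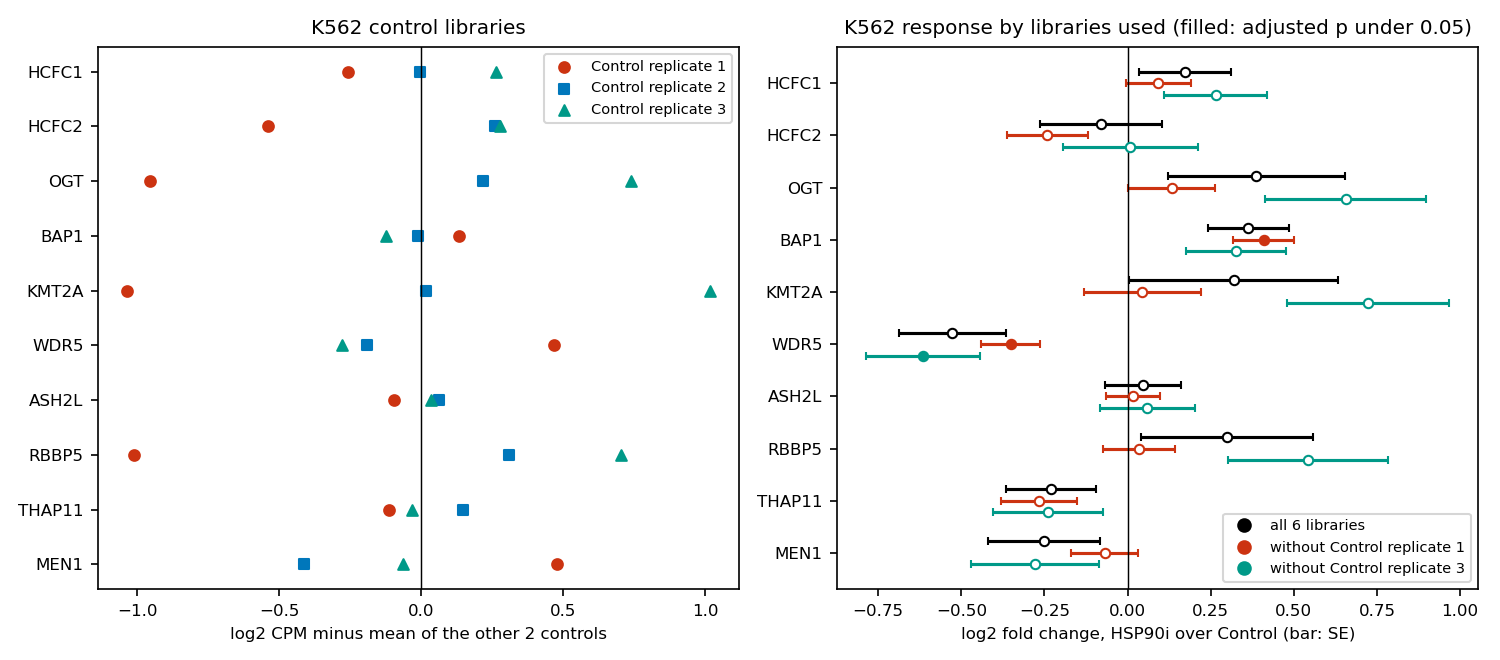
Left, log2 CPM of each gene in each K562 Control library minus the mean of the other 2 controls. Right, the K562 log2 fold change with its SE from all 6 libraries (black), without Control replicate 1 (red) and without Control replicate 3 (green), filled where the adjusted p is under 0.05. KMT2A, RBBP5 and OGT of Control replicate 1 lie near -1, and only BAP1 and WDR5 have filled points.

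The untreated mouse lines differed in the level of every member. In a joint fit of the 12 mouse libraries, 9 genes were higher and 1 lower in HPC-7 Control than in MEF Control, where 43.6% of all tested genes were called higher and 39.7% lower (83.2% in all). OGT differed most, at 167 ± 3.03 CPM in MEF and 614 ± 25.5 in HPC-7 (SD, n = 3, joint scaling), a difference of 1.88 ± 0.07 on the log2 scale. WDR5 followed with 71.4 ± 5.68 and 203 ± 2.47 CPM (1.51 ± 0.08). RBBP5, KMT2A, HCFC1 and BAP1 were higher in HPC-7 by 0.97 ± 0.06, 0.85 ± 0.07, 0.73 ± 0.06 and 0.67 ± 0.06. For HCFC1 the levels were 305 ± 11.4 and 506 ± 32.8 CPM. THAP11, ASH2L and MEN1 had the smallest positive differences (0.51 ± 0.08, 0.48 ± 0.07 and 0.40 ± 0.07). Only the paralog HCFC2 was lower in HPC-7, at 53.1 ± 2.72 CPM in MEF and 41.8 ± 2.47 in HPC-7 (-0.34 ± 0.08, adjusted p = 0.00144), and it lost the call when scaled by library size alone (adjusted p = 0.159). The line cannot be told apart from the count table. The median difference over all 13720 genes was 0.08, and -0.07 with RLE factors or 0.30 with library size alone, where 46.5% and 59.6% of calls were higher in HPC-7 in place of 52.3%.

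The responses of HCFC1, OGT and KMT2A differed between the mouse lines. The interaction of line and condition (HPC-7 response minus MEF response) was -0.62 ± 0.09 for HCFC1, 0.73 ± 0.09 for OGT and 0.87 ± 0.10 for KMT2A (log2 ± SE, adjusted p = 6.76e-05, 1.58e-05 and 1.25e-05). These 3 genes were called in all 19 alternatives, with ranges of -0.67 to -0.38, 0.67 to 0.97 and 0.81 to 1.11. In HPC-7 all 3 treated libraries lay below the controls for HCFC1, in MEF all 3 above. ASH2L (-0.43 ± 0.10, adjusted p = 0.00205) was called in 16 of 19 alternatives and lost the call without each of the HPC-7 controls (adjusted p = 0.146, 0.0931 and 0.121 without replicates 1, 2 and 3). RBBP5 (-0.30 ± 0.09, adjusted p = 0.0124) was called in 11 and BAP1 (-0.21 ± 0.08, adjusted p = 0.0446) in 4 of 19 alternatives. Among alternatives that ended the call, RLE factors gave RBBP5 -0.18 (adjusted p = 0.131) and BAP1 -0.09 (adjusted p = 0.453), and without HPC-7 Control replicates 1, 2 and 3 RBBP5 was -0.07, -0.09 and -0.12 and BAP1 -0.02, 0.0036 and 0.01. The differences for THAP11 (0.27 ± 0.11), WDR5 (0.20 ± 0.11), MEN1 (-0.16 ± 0.10) and HCFC2 (-0.13 ± 0.12) did not pass (adjusted p = 0.0698, 0.181, 0.231 and 0.400). THAP11 was called in 7 and WDR5 in 6 of 19 alternatives, among them RLE factors, upper quartile factors, DESeq2 and the fits without each HPC-7 control, and MEN1 and HCFC2 in 0.

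Thus 2 members were called higher and 4 lower in that interaction, beside 17.8% and 25.4% of all genes (43.2% in all). The whole distribution was shifted, with a median of -0.11 over all genes. Relative to that shift, HCFC1 differed by -0.51, OGT by 0.84, KMT2A by 0.98, ASH2L by -0.32, RBBP5 by -0.19 and BAP1 by -0.10. With RLE factors the median was 0.01 and the calls over all genes were 3090 higher and 2771 lower, in place of 2445 and 3488. Without an HPC-7 control library the median was 0.11, 0.10 or 0.10 (replicates 1, 2 and 3), and the genes called lower fell from 3488 to 2152, 2182 or 2139. In each of those 3 fits, 4 members were higher, OGT, KMT2A, WDR5 and THAP11, and 1, HCFC1, was lower. Line and dose cannot be told apart in this comparison, and the difference between K562 and the mouse lines was not tested.

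**Figure D4:**
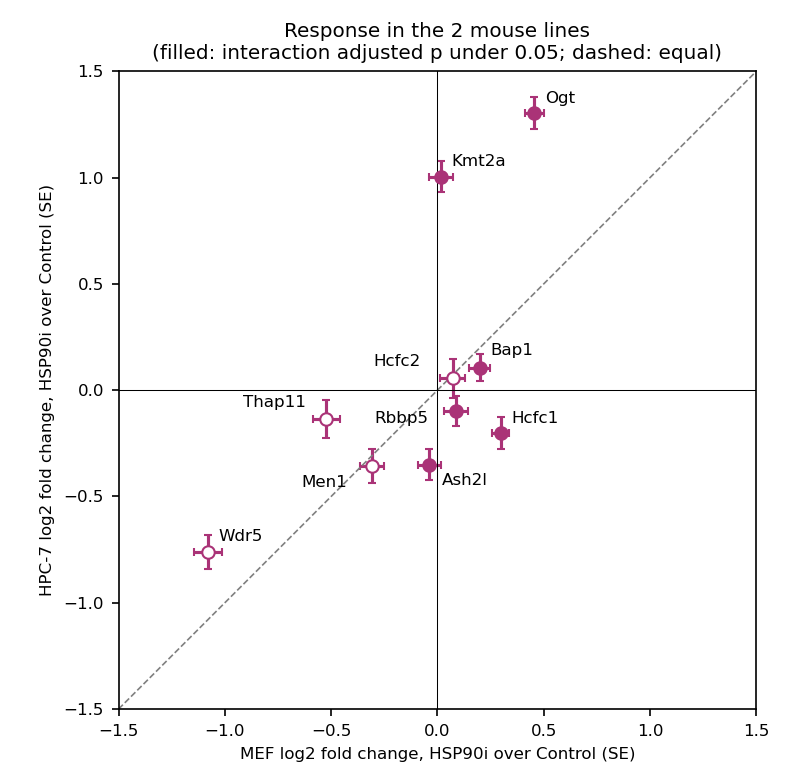
Log2 fold change in MEF (horizontal axis) against HPC-7 (vertical axis) for the 10 genes, each from the fit of its own line, with SE bars and the dashed line of equal response. Filled points passed the interaction test at an adjusted p of 0.05; Ogt and Kmt2a lie well above the dashed line, and Hcfc1 lies in the quadrant of a rise in MEF and a fall in HPC-7.

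The start regions of OGT and WDR5, the genes with the greatest rise and fall, are shown with each CG dinucleotide in capitals. They come from RefSeq's annotation of GRCm38.p6, which gave a window of 250 bases before to 50 after a transcript start for 9 of the 10 mouse genes; the sequences are the bases of the window before the gene, 5′ to 3′ on the gene's strand. Wdr5 occupies chr2:27515147-27536535 and Ogt chrX:101640011-101684351, both on the plus strand.
Wdr5 chr2:27514897-27515146: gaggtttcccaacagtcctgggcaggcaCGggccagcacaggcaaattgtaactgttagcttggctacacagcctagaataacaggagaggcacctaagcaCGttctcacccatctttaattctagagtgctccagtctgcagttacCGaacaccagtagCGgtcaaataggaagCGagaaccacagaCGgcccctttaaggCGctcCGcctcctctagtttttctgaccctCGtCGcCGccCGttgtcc
Ogt chrX:101639801-101640010: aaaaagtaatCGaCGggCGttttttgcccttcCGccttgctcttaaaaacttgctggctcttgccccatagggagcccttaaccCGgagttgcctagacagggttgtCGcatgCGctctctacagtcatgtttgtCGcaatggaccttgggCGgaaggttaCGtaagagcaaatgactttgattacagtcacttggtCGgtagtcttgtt
The whole windows of Wdr5 and Ogt held 22 and 20 CG dinucleotides, and that of a second annotated Ogt start held 14, beside a median of 7 over 32851 mouse windows (quartiles 3 and 20.0). None of these windows held a match to any of the motifs searched on both strands. Among these was the heat shock element, bound by the factor that HSP90 inhibitors are known to release. It was searched as GAA, TTC and GAA with any 2 bases (NN) between the triplets. The form TTC, GAA and TTC is the same element read on the other strand. The element occurs in 0.603% of all windows and in 0 of the 9 members' windows. The shared THAP11 and ZNF143 motif (ACTACA, NN, TCCCA, 1.47% of windows), the ZNF143 core (TCCCA, NN, ATGC, 1.06%), the E2F forms TTTCCCGC (1.07%) and TTTGGCGC (0.514%) and the cyclic AMP element TGACGTCA (1.79%) were also in none of the 9.

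Other matches fell in Hcfc1 itself and in its partners, and those of Hcfc1 are shown with the motif in capitals. Hcfc1 (chrX:73942792-73966995, minus strand) held the YY1 motif AAGATGGC (2.75% of all windows) at 2 places, 168 bases before and 25 bases after a transcript start that lies inside the annotated gene. It also held CCGGAAG, the motif of GABPA and other ETS factors (8.86%), 86 bases before that start.
Hcfc1 chrX:73966508-73966535: ggacggtttcAAGATGGCggcttccaca
Hcfc1 chrX:73966316-73966343: gaggcggctcAAGATGGCggctcccaga
Hcfc1 chrX:73966427-73966453: tccacccgccCCGGAAGccagccagtg
YY1 and GABPA are themselves on the list of factors that bind HCFC1. Thap11 also held CCGGAAG, Hcfc2 held AAGATGGC, and Hcfc2 and Bap1 held the E-box CACGTG (7.15%), which MYC binds. The 6 letters ACTACA, part of the THAP11 motif (10.3%), were in the window of Men1 (chr19:6334979-6340894). A match is a run of letters, not a shown binding site, and the genes with a match did not share a direction of response.

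Related genes were counted in 8 lists of partners and targets, beside all tested genes, of which 35.1% were called higher and 38.2% lower in MEF, 36.5% and 36.6% in HPC-7, and 5.11% and 5.97% in K562. Of all 13456 K562 genes, 3631 had an unadjusted p under 0.05, and DESeq2 called 943 higher and 968 lower. Without K562 Control replicate 1, edgeR called 1922 of 13709 genes higher and 1995 lower. Among subunits of H3K4 methyltransferase complexes other than the members, 4 of 13 rose and 7 fell in MEF (median -0.22), and 5 rose and 5 fell in HPC-7 (median 0.12), where the share called was near the 73.1% of all genes. The methyltransferase gene KMT2C rose in both, from 31.4 ± 0.686 to 50.6 ± 1.92 CPM in MEF (0.69 ± 0.06) and in HPC-7 from 159.6 ± 8.19 to 371 ± 43.6 (1.22 ± 0.09; SD, n = 3). DPY30, which binds ASH2L, fell in both (-0.81 ± 0.07 and -1.17 ± 0.10), and so did PAXIP1, a subunit of the KMT2C and KMT2D complexes (-0.96 ± 0.07 and -1.56 ± 0.15). PSIP1, which tethers menin and KMT2A to chromatin, fell in HPC-7 from 263 ± 15.9 to 76.9 ± 18.4 CPM (-1.78 ± 0.14). SETD1B fell in MEF (-1.55 ± 0.13). In K562 0 of the 12 tested subunits was called by edgeR and 0 by DESeq2, with 1 at an unadjusted p under 0.05 (median 0.15), and 1 was lower without Control replicate 1.

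Of the H3K4 demethylases, which oppose those enzymes, 1 of 4 was called higher in K562, 3 of 4 in MEF and 2 of 4 in HPC-7 (medians 0.30, 0.65 and 0.38), beside 5.11%, 35.1% and 36.5% of all genes, and 0 were called lower. In MEF the share called in either direction was near the 73.4% of all genes, and in HPC-7 it was below the 73.1% there. KDM5B rose from 43.6 ± 2.55 to 122 ± 2.55 CPM in MEF (1.49 ± 0.06) and in HPC-7 from 165 ± 6.12 to 491 ± 62.6 (1.57 ± 0.10). KDM5A rose in all 3 lines, by 0.95 ± 0.24, 0.97 ± 0.07 and 0.70 ± 0.08 in K562, MEF and HPC-7. The K562 call of KDM5A (adjusted p = 0.0371) was lost with library size alone and without Control replicate 2 or any 1 of the HSP90i libraries (highest adjusted p 0.147). Without Control replicate 1, 2 of the 4 were higher in K562, beside 1922 of all 13709 genes.

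In the O-GlcNAc list, made of the opposing enzyme OGA, the OGT-binding TET enzymes and the pathway that makes the donor sugar, 7 of 9 genes rose and 2 fell in MEF (median 0.79), 4 rose and 4 fell in HPC-7 (median -0.04), and 3 of 8 rose in K562 (median 0.51). Of all genes 35.1% rose and 38.2% fell in MEF, 36.5% and 36.6% in HPC-7, and 5.11% rose in K562. OGA, which removes O-GlcNAc, rose together with OGT in the mouse lines, from 162 ± 11.9 to 388 ± 13.9 CPM in MEF (1.26 ± 0.06) and in HPC-7 from 219 ± 7.25 to 433 ± 22 (0.98 ± 0.07). UAP1, the last enzyme of the donor pathway, fell in both (-1.49 ± 0.08 and -1.67 ± 0.13). TET2 rose in both (1.77 ± 0.10 and 1.11 ± 0.09), and GFPT2, an isoform of the first enzyme, rose in MEF (1.63 ± 0.08). PGM3, a middle enzyme of the pathway, rose in K562 from 111 ± 20.4 to 250.1 ± 13.5 CPM (1.17 ± 0.16, adjusted p = 0.00345) and fell in HPC-7 (-0.79 ± 0.12). In K562 TET1 (1.28 ± 0.27) and GFPT1 (0.62 ± 0.15) were called too, and both lost the call without Control replicate 2 or any 1 HSP90i library, GFPT1 also with library size alone (highest adjusted p 0.0962 and 0.135). Without Control replicate 1 the K562 counts were 5 higher and 1 lower, beside 1922 and 1995 of all 13709 genes.

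Among other factors that bind HCFC1, 3 of 16 rose and 9 fell in MEF (median -0.29), and 3 of 17 rose and 9 fell in HPC-7 (median -0.28). The share called was near that of all genes in both (73.4% and 73.1%), of which 38.2% and 36.6% fell. In K562 0 rose and 2 of 18 fell (median -0.16), or 1 rose and 4 fell by DESeq2 and 2 rose and 6 fell without Control replicate 1. Of all K562 genes 5.11% rose and 5.97% fell. DESeq2 called 943 of 13456 higher and 968 lower, and without Control replicate 1 edgeR called 1922 and 1995 of 13709. MYC fell in K562 from 251 ± 36.8 to 93.4 ± 6.32 CPM (-1.43 ± 0.15) and in MEF from 79.9 ± 1.73 to 11.9 ± 0.902 (-2.76 ± 0.07). E2F1, which recruits HCFC1 to genes of the cell cycle, fell in K562 (-0.80 ± 0.16; not called without Control replicate 2 or any 1 HSP90i library, highest adjusted p 0.0963) and in HPC-7 (-1.5 ± 0.12). E2F4 fell in both mouse lines (-0.70 ± 0.06 and -1.17 ± 0.10), as did KMT5A, the methyltransferase of histone H4 lysine 20 (-0.91 ± 0.05 and -1.10 ± 0.08). THAP3, a relative of THAP11, rose in both (0.82 ± 0.08 and 0.87 ± 0.10).

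The SIN3 deacetylase complex, which HCFC1 also binds, had 2 of 12 genes higher and 7 lower in MEF (median -0.29) and 1 higher and 7 lower in HPC-7 (median -0.27). Of all genes 35.1% were higher and 38.2% lower in MEF and 36.5% and 36.6% in HPC-7, and the share of the complex called in either direction was near that of all genes in MEF (73.4%) and somewhat below it in HPC-7 (73.1%). RBBP7, a histone-binding subunit, fell in both (-0.66 ± 0.05 and -1.73 ± 0.16), while the deacetylase HDAC1 rose in MEF (0.33 ± 0.04) and fell in HPC-7 (-0.87 ± 0.08). SIN3B rose in MEF (0.70 ± 0.05) and in HPC-7 (0.21 ± 0.07), where the call was lost without Control replicate 1, Control replicate 2 or HSP90i replicate 1 and with no filter on low counts (highest adjusted p 0.0836). In K562 only ING1 was called of 12 (higher, 0.72 ± 0.13; median -0.02), and not without any 1 of the HSP90i libraries (highest adjusted p 0.0733). Without Control replicate 1 the K562 counts were 1 higher and 1 lower, beside 1922 and 1995 of all 13709 genes.

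BAP1's partners had 3 of 8 higher and 3 lower in MEF (median 0.10), 2 of 7 higher and 1 lower in HPC-7 (median 0.02) and 0 of 7 called in K562 by edgeR or DESeq2, with 1 at an unadjusted p under 0.05 (median -0.0019; 1 higher and 2 lower without Control replicate 1). Of all genes 35.1% were higher and 38.2% lower in MEF, 36.5% and 36.6% in HPC-7, and 5.11% and 5.97% in K562. In K562, 3631 of all 13456 genes had an unadjusted p under 0.05. Without Control replicate 1, 1922 of 13709 K562 genes were higher and 1995 lower. The share of the partners called in either direction was near the 73.4% of all genes in MEF and below the 73.1% in HPC-7. The methyl-binding-domain genes MBD5 (0.89 ± 0.15 and 0.73 ± 0.08) and MBD6 (0.50 ± 0.09 and 0.66 ± 0.10) rose in both mouse lines. FOXK2, a forkhead factor that brings BAP1 to DNA, fell in both, from 117 ± 3.30 to 36.6 ± 8.44 CPM in HPC-7 (-1.68 ± 0.13) and by -0.46 ± 0.05 in MEF. In the NSL acetyltransferase complex, which shares WDR5 and HCFC1, 2 of 7 rose and 3 fell in MEF (median -0.08), 4 rose and 1 fell in HPC-7 (median 0.18; 2 rose without any 1 of the HPC-7 controls or without HSP90i replicate 2), and 0 of 7 were called in K562 by either tool, with 1 at an unadjusted p under 0.05 (median 0.16; 3 higher without Control replicate 1). With all libraries the share of NSL genes called was near that of all genes in both mouse lines. Of those that fell in MEF, PHF20 lost its call with RLE factors, library size alone, DESeq2 and upper quartile factors (edgeR, adjusted p = 0.406). Its call was also lost without any 1 of the MEF controls, HSP90i replicate 1 or HSP90i replicate 3. The complex's acetyltransferase KAT8 (0.47 ± 0.07 and 0.54 ± 0.10) and its scaffold KANSL1 (0.22 ± 0.06 and 0.57 ± 0.07) rose in both mouse lines.

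Of known target genes of menin and KMT2A, 2 of 7 rose and 2 fell in K562 (median 0.36; 3 and 2 without Control replicate 1), 4 of 7 rose and 1 fell in MEF (median 0.23), and 3 of 8 rose and 1 fell in HPC-7 (median 0.14). The share called in either direction was near the 73.4% of all genes in MEF and below the 73.1% in HPC-7. In K562 11.1% of all genes were called, and without Control replicate 1 1922 of 13709 were higher and 1995 lower. The cell-cycle inhibitor CDKN1B rose in all 3 lines (0.63 ± 0.12, 0.39 ± 0.06 and 1.06 ± 0.08), and CDKN2C, also a cell-cycle inhibitor, rose in K562 (0.72 ± 0.13) and fell in MEF (-0.63 ± 0.07) and HPC-7 (-1.55 ± 0.14). MEF2C, a transcription factor of blood cells, fell in K562 (-0.66 ± 0.17) and rose in HPC-7 from 46.9 ± 2.28 to 145 ± 18.9 CPM (1.63 ± 0.10). The K562 calls of CDKN1B, CDKN2C and MEF2C were each lost without Control replicate 2, HSP90i replicate 1 or HSP90i replicate 2, those of CDKN1B and MEF2C also without HSP90i replicate 3 and that of MEF2C also without Control replicate 3 (highest adjusted p 0.0977, 0.0739 and 0.178). PBX3, the other gene that fell in K562, lost its call without HSP90i replicate 1 (-2.37) or 2 (-2.41). Without either of these libraries 0 of the K562 targets rose and 0 fell. Without HSP90i replicate 3, 1 rose and 1 fell, and without Control replicate 2, 0 rose and 1 fell. Those fits called 173 to 241 of all K562 genes higher and 171 to 328 lower.

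**Figure D5:**
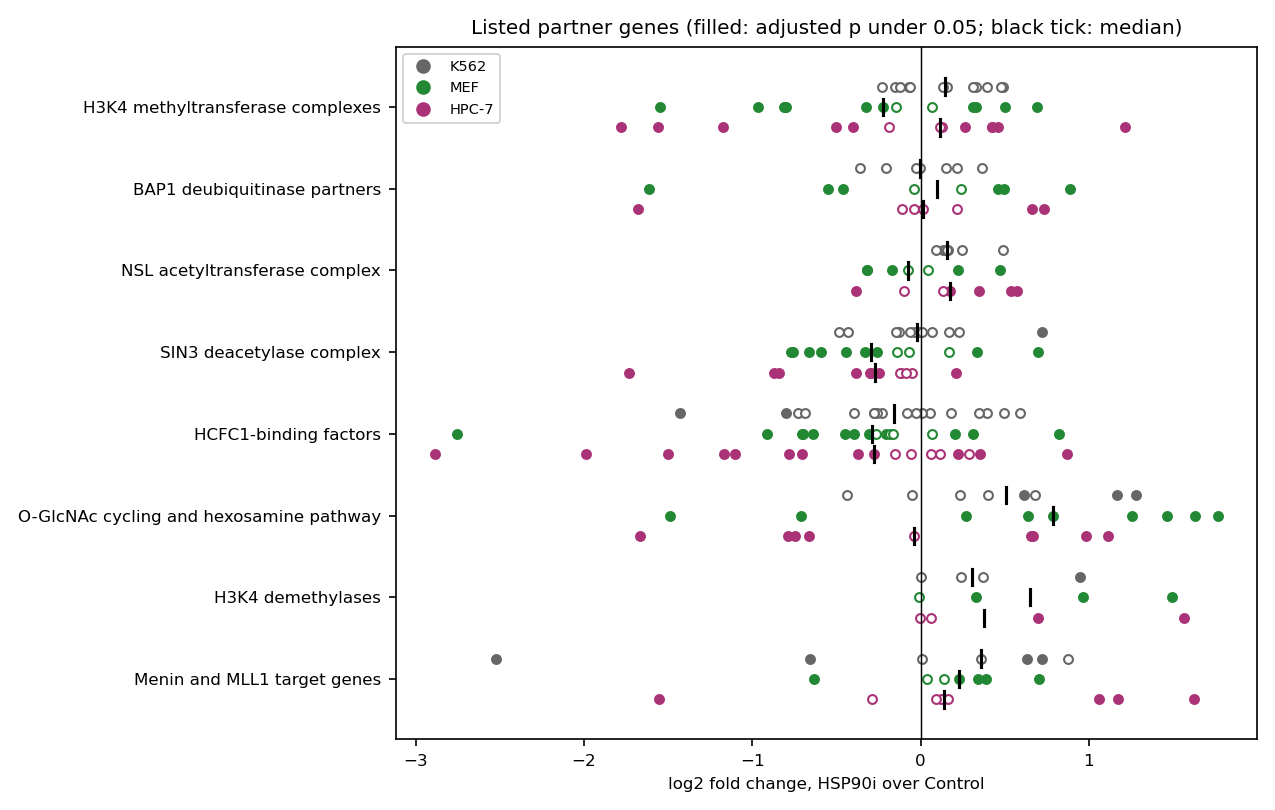
Log2 fold change (horizontal axis) of each tested gene in the 8 lists of related genes in K562 (grey), MEF (green) and HPC-7 (purple); filled points passed an adjusted p of 0.05 and the black tick is the list's median. The filled H3K4 demethylase points all lie right of zero, and few K562 points are filled.

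Likeness to HCFC1 was ranked over 8321 genes by Pearson's r across the 18 libraries, after centring log2 CPM on the mean of each line. The 5 most like genes were ATXN2 (r = 0.935), FRMD4B (0.904), NONO (0.891), NFE2L1 (0.889) and ST3GAL2 (0.885). They were picked on Control and HSP90i libraries together, so the directions they share with HCFC1 follow largely from the choice. Like HCFC1, ST3GAL2, a sialyltransferase gene, rose in MEF (0.70) and fell in HPC-7 (-0.47), as did FRMD4B (1.62 and -1.09) and NFE2L1, a transcription factor gene (0.18 and -0.24). The RNA-binding genes ATXN2 and NONO rose in MEF (0.42 and 0.14) and had differences in HPC-7 that did not pass (-0.16 and -0.08). The MEF call of NONO did not hold when Control replicate 1 or HSP90i replicate 3 was left out (adjusted p = 0.0634 and 0.0506), and ATXN2 in HPC-7 was called without HSP90i replicate 2 (-0.25, adjusted p = 0.0130). In K562 edgeR with all libraries called 0 of these 5, but ST3GAL2 passed in DESeq2 (0.43, adjusted p = 0.0407) and once Control replicate 1 was left out (0.33, adjusted p = 0.0131), and FRMD4B with no filter on low counts (0.88, adjusted p = 0.0312). Among HCFC1's own partners RBBP5 ranked highest, at 387 (r = 0.615), followed by ASH2L at 1295 and BAP1 at 1406. OGT ranked 2963, KMT2A 3345 and HCFC2 2555, and MEN1 (6292), WDR5 (7194) and THAP11 (7688, r = -0.530) were the least like HCFC1. The points share their libraries and the response to treatment, so the values describe these 18 libraries alone.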

How the data were processed

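The RNA-seq tables cover 3 Control and 3 HSP90i libraries for each of K562, MEF and HPC-7. Groups come from the sample titles, and the columns named for DMSO were taken as Control. As deposited, the values were raw whole-number counts for each gene. The submitters' processing notes name Trim Galore, featureCounts, Picard, TopHat2 2.0.13, MACS2, Bowtie2 and DESeq2 for the series, and the builds mm10, hg38, GRCm38 and GRCh37, but tie none of them to a table. Human positions are left out, since the sources used here do not state the build used for K562. The list of HSP90 binding peaks was not used here.

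Genes were filtered with filterByExpr and scaled with TMM. The quasi-likelihood test of edgeR 4.0.16 (R 4.3.3) was fitted on each whole table, with Benjamini-Hochberg adjustment over all genes tested and a threshold of 0.05. The spread between replicates, as edgeR's biological coefficient of variation, was 0.172 for K562, 0.0835 for MEF and 0.0900 for HPC-7. One fit of the 12 mouse libraries tested the interaction of line and condition and compared the controls. No samples were dropped, and the procedures were tested on simulated data. Other settings tried were scaling by RLE factors, by upper quartile factors or by library size alone, testing all genes with a count or those reaching 1 CPM in 3 libraries, DESeq2 1.42.0, a replicate block, and leaving out each library in turn.

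The members and the 8 lists were chosen with earlier results of these data known, so a list is described by its counts and median and is not independent evidence. Named were all members, up to 3 called genes per direction with the smallest p in each list and line, the 5 genes most like HCFC1, and HSPA8 and HSP90AA1. Not every gene named by the rule is given values. Mouse positions and start regions are those of RefSeq on GRCm38.p6. Figures were drawn with matplotlib 3.10.9 (Python 3.11.15).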

Additional observations from a re-analysis of the deposited data

Results flagged for a closer look

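The responses to the inhibitor differed between HPC-7 and MEF for 6 of the 10 genes by the test of the interaction in edgeR, given here as HPC-7 minus MEF on the log2 scale, beside 43.2% of all genes. Which genes were called changed with the scaling: RLE factors, upper quartile factors and DESeq2 each called WDR5 and THAP11 and did not call RBBP5 and BAP1. The greatest differences were those of KMT2A (0.87), OGT (0.73) and HCFC1 (-0.62), and each was called in 19 of 19 alternatives. ASH2L (-0.43) was called in 16, RBBP5 (-0.30) in 11 and BAP1 (-0.21) in 4 of 19 alternatives. Line and dose cannot be told apart in these values.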

How the results depend on the processing

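Over all alternatives, 2014 values of single genes kept their direction and their side of the threshold, 91 lost the call, 27 gained it and 19 changed sign. The MEF calls of OGT, WDR5, HCFC1, BAP1, THAP11 and MEN1 and the HPC-7 calls of OGT, KMT2A, WDR5, ASH2L and MEN1 were made under all 13 alternatives. K562 rested on single libraries: with each left out in turn, 173 to 1922 genes were called higher and 171 to 1995 lower, with 0 to 1 members in each direction. Scaling by library size alone called 435 genes higher and 1195 lower there, and 1 member, WDR5, was lower with library size alone, with DESeq2 and with the replicate block. The cause was not tested. ASH2L in K562 turned to -0.060 with library size alone and -0.026 with upper quartile factors, NONO to -0.060 and -0.025, and ASH2L in MEF to 0.065 with upper quartile factors, which also called 5 members higher in MEF, HCFC2 and RBBP5 added. With those factors 5037 of all 12340 MEF genes were higher, in place of 4337. The median over all MEF genes was then 0.09, in place of -0.01. With single libraries left out, uncalled differences changed sign for HCFC2 in K562 (-0.24 to 0.021), for KMT2A (-0.019 to 0.074) and ASH2L (-0.075 to 0.030) in MEF, and, between the mouse lines, for HCFC2 (-0.20 to 0.10) and MEN1 (-0.23 to 0.086); BAP1, called there with all libraries, ran from -0.26 to 0.011.

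Between the mouse lines, RLE factors, upper quartile factors and DESeq2 each gave 4 members higher and 2 lower, and library size alone and the replicate block 2 lower. With single libraries left out the members were 2 to 4 higher and 1 to 4 lower and all genes lower 2139 to 3711. In the untreated mouse lines 0 members were lower with library size alone. Same-numbered libraries did not deviate together in every pair (r = 0.28, 0.04 and 0.45 in K562, 0.27, -0.22 and -0.25 in MEF, and 0.0064, 0.02 and -0.09 in HPC-7), so the numbers were not taken as pairs. In K562, pairs of different number ran from -0.39 to 0.17, below the same-numbered values of replicates 1 and 3. Whether the numbers mark a batch in K562 was not tested. With the replicate block K562 had 872 genes higher and 938 lower, and HCFC1 in HPC-7 was no longer called (adjusted p = 0.0826), nor was SIN3B there (0.21, adjusted p = 0.0620), which left 0 SIN3 genes higher. The counts of HSP90 peaks near gene starts, planned for windows of 1 kb and 5 kb and for peaks of at least 5-fold enrichment, were not run, since no human annotation was used here.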
